A study of Mus musculus with 12 samples.

Results

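Cultured mouse hippocampal neurons at 12 days in vitro (DIV) were compared with the same kind of culture at 6 DIV, an interval in which such neurons form many of their synapses. The comparison was chosen with earlier results of these data known. It used 4 of the 12 arrays of a time course over 0, 1, 3, 6, 12 and 15 DIV. These arrays were taken by their label alone, 2 at 12 DIV and 2 at 6 DIV. Each replicate number of the labels gave a 12 DIV minus 6 DIV difference, called here the difference of culture 1 and of culture 2. The labels do not state that arrays of the same number came from the same preparation of cells. All 20358 genes with a value were included. Both groups came from RjOrl:SWISS mouse embryos of embryonic day 17.5 to 18.5, with no mutant allele or treatment labelled, and differed by the time in culture. Hippocampi had been dissociated with trypsin and no sort of the cells is described, so other cells of the hippocampus could be present beside neurons. Cytosine arabinoside at 1 µM, a nucleoside that kills dividing cells, was part of the culture protocol at 3 DIV and so preceded both times. Expression was measured on Affymetrix Mouse Gene ST arrays, and every value below is on the log2 scale unless a fold is named.

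Dissociated hippocampal neurons first extend an axon and dendrites. They then assemble synapses, in which vesicles loaded by transmitter transporters fuse at the presynaptic membrane and receptors are held opposite by the scaffold proteins of the postsynaptic density. In the same period the neurons lower the early cytoskeletal, adhesion and RNA-binding proteins of newborn cells, acquire adult potassium and sodium channels, and build the axon initial segment. The time course was made to find genes of the microtubule cytoskeleton that are used in neurons after cell division has ended.

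Neuronal genes had high values on all 4 arrays. *Tubb3*, the neuronal beta-tubulin, had values of 12.59 and 12.66 at 12 DIV and 12.67 and 12.61 at 6 DIV, above the 95% quantile of every array, which lay between 10.43 and 10.70. *Map2*, a dendritic microtubule-associated protein, had 11.24 and 11.78 at 12 DIV and 11.57 and 11.71 at 6 DIV. High values were not confined to neuronal genes. The astrocyte gene *Slc1a3* had 11.53 and 10.84 at 12 DIV and 11.40 and 10.47 at 6 DIV. *Olig1*, of the oligodendrocyte lineage, had 10.30 and 10.25 at 12 DIV and 10.06 and 9.64 at 6 DIV. The endothelial gene *Cdh5* was low (5.69 and 5.56 at 12 DIV, 5.60 and 5.36 at 6 DIV). Of the 4 arrays, 1 stood apart from the rest. The 12 DIV array of culture 1 had its lowest 5% of genes below 4.93, against 4.56 to 4.76 on the other 11 arrays, and the narrowest range between its 5% and 95% quantiles (5.65, against 5.68 to 6.15). Its highest correlation with any other array, across genes, was 0.955, against 0.970 to 0.991 for the others. The differences of culture 1 spread more widely (SD 0.571 over genes) than those of culture 2 (SD 0.351). Among the 5089 genes of lowest signal at the other times the median difference was 0.33 in culture 1 and -0.09 in culture 2. The correlation of the differences of both cultures was 0.05 in that group and 0.40 in the 5090 genes of highest signal. Values of both cultures are therefore given side by side throughout. Those of culture 2 are differences between 2 other arrays. They are not fully independent of the array that stood apart, since all 12 arrays were normalized together and probesets were chosen by their spread.

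**Figure D1:**
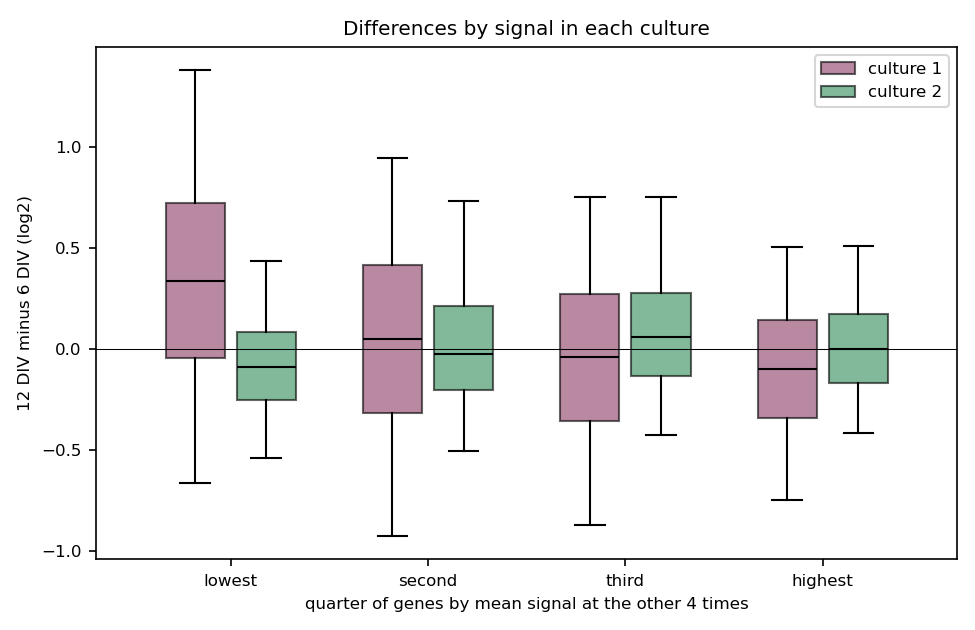
The difference between 12 DIV and 6 DIV (log2) of all genes, in 4 equal groups by mean signal at the other 4 times, for culture 1 and culture 2. Boxes span the middle 50% of genes with the median as a line, and whiskers reach the 5% and 95% quantiles. The genes of lowest signal sit higher in culture 1 (median 0.33) than in culture 2 (median -0.09).

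Which genes differed between 12 DIV and 6 DIV was tested with limma over all 12 arrays, in a model of time (as a factor) and replicate number (as a block). With Benjamini-Hochberg adjustment over all genes, 6 genes were higher at 12 DIV (0.0295% of 20358) and 0 were lower (0%). These 6 were *Cntnap1*, *Rasgrp1*, *Cpne6*, *Cpne7*, *Scn2b* and *Dcn*. At an unadjusted p under 0.05, limma had 1276 genes higher (6.27%) and 784 lower (3.85%). The count depended on single arrays. Without the 12 DIV array of culture 1 the test called 3 genes, all among these 6, and without the 12 DIV array of culture 2 it called 839 higher and 512 lower. It called 0 genes higher without the 6 DIV array of culture 1, where only *Adgre1*, a macrophage receptor, was called lower (-2.49, adjusted p = 0.0263), and 0 genes in either direction without the 6 DIV array of culture 2.

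A description with no test was set beside this, chosen after the values had been seen. A difference of at least 1, which is a doubling, in the same direction in both cultures was found for 97 genes higher at 12 DIV (0.476%) and 16 lower (0.0786%), and 15 genes differed by at least 1 in opposite directions (0.0737%). With a smaller size of 0.5 the counts were 677 higher (3.33%), 228 lower (1.12%) and 293 opposed (1.44%). The higher side was thus the larger of the 2 at both sizes. At 0.5 its excess was smaller with each array centred on its median (602 higher, 312 lower) or with quantile normalization (636 and 287). Over all genes irrespective of size, 27.7% were higher in both cultures and 27.2% lower in both. The same size of 1 was passed by 7.81% of genes in culture 1 and 1.86% in culture 2. Counts at 0.5 in the gene lists below are to be compared with the 3.33% higher and 1.12% lower of all genes. Genes named below for their differences in both cultures, other than the 6 called, did not pass the test and were picked after their values had been seen.

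**Figure D2:**
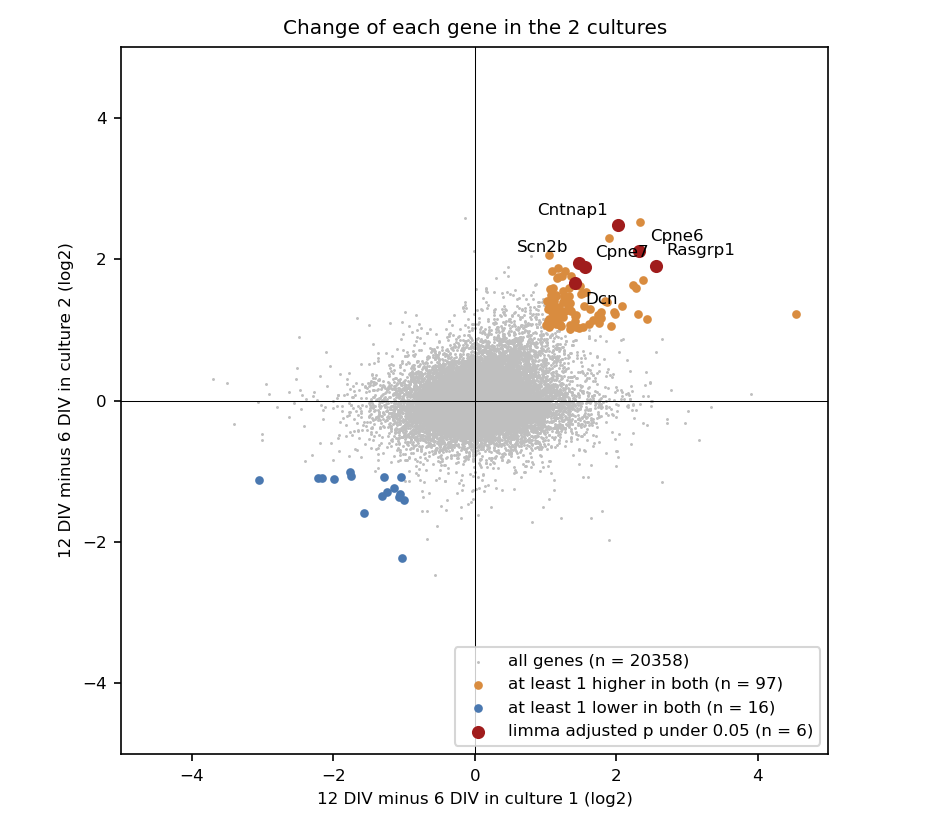
Each point is 1 of 20358 genes, with its 12 DIV minus 6 DIV difference (log2) in culture 1 on the x axis and in culture 2 on the y axis. The 97 genes at least 1 higher in both cultures (orange) outnumber the 16 at least 1 lower in both (blue), and the 6 genes called by limma (dark red) lie between 1.41 and 2.56 on both axes.

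Of the 6 genes, *Rasgrp1* encodes a guanine nucleotide exchange factor that activates Ras in response to diacylglycerol and calcium. It had values of 10.14 and 9.34 at 12 DIV, against 7.58 and 7.43 at 6 DIV. Both 12 DIV arrays lay above both 6 DIV arrays, by more than replicates of a time differed. The means were 9.74 ± 0.56 at 12 DIV and 7.50 ± 0.10 at 6 DIV (SD, n = 2 each), a rise of 2.23 (standard error 0.23, 4.71-fold, limma adjusted p = 0.0107). *Cpne6*, a copine that binds membrane phospholipids when calcium rises and sits in the spines of excitatory neurons, had 9.31 and 9.00 at 12 DIV, against 6.99 and 6.88 at 6 DIV. It rose by 2.22 (standard error 0.20, 95% interval 1.78 to 2.66, 4.65-fold) and had the smallest adjusted p of all genes (0.00654 from limma). Its relative *Cpne7* had 10.80 and 10.81 at 12 DIV, against 9.24 and 8.92 at 6 DIV, and rose by 1.72 (standard error 0.22, limma adjusted p = 0.0385). Its 12 DIV arrays were nearly equal. The other 6 measured copines did not pass, with *Cpne4* highest among them (differences 0.82 and 0.38) and *Cpne9* lowest (-1.11 and 0.22).

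*Cntnap1* encodes Caspr, the axonal adhesion protein that borders the node of Ranvier. Its values were 9.02 and 9.77 at 12 DIV, against 7.00 and 7.30 at 6 DIV, a rise of 2.25 (standard error 0.25, 95% interval 1.70 to 2.80, 4.76-fold, limma adjusted p = 0.0181). *Scn2b* encodes the beta-2 subunit of voltage-gated sodium channels, which helps to bring the channel to the surface of axons. It had 8.56 and 9.04 at 12 DIV, against 7.09 and 7.09 at 6 DIV, and rose by 1.71 (standard error 0.22, 3.27-fold, limma adjusted p = 0.0419). *Dcn* encodes decorin, a small proteoglycan of the extracellular matrix that is best known from fibroblasts. Its values were 9.85 and 10.02 at 12 DIV, against 8.44 and 8.36 at 6 DIV, a rise of 1.53 (standard error 0.18, 2.90-fold, limma adjusted p = 0.0216). In all 3 genes the replicates of a time lay closer to each other than to either array of the other time.

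The rise was carried by most probesets of each gene rather than by single exons. Of the probesets of a gene, which mostly lie within 1 exon, those higher in both cultures were 23 of 25 for *Cntnap1*, 15 of 17 for *Cpne6*, 14 of 16 for *Cpne7*, 17 of 19 for *Rasgrp1*, 8 of 8 for *Dcn* and 6 of 6 for *Scn2b*. When every probeset of a gene was used in place of the more variable ones, all 6 still passed, with rises between 1.25 for *Scn2b* and 2.18 for *Rasgrp1*. Without the 12 DIV array of culture 1, *Cpne6* (adjusted p = 0.0353), *Cntnap1* and *Scn2b* still passed, and *Rasgrp1* (0.0703), *Dcn* (0.0786) and *Cpne7* (0.173) did not, in the same limma model. All 6 lost the call without either 6 DIV array. Arrays of the other times also mattered, since they share the estimate of the spread. *Scn2b* lost its call without any 1 array of 0, 1, 3 or 15 DIV (adjusted p = 0.0667 to 0.0823), *Dcn* without one of 0, 1 or 15 DIV (0.0503 to 0.0667) and *Cpne7* without one of 1, 3 or 15 DIV (0.0681 to 0.0842), whereas *Cpne6*, *Cntnap1* and *Rasgrp1* kept theirs without any 1 of these arrays. With array quality weights, *Scn2b* (0.122), *Cpne7* (0.122) and *Dcn* (0.075) did not pass. Without the replicate block, *Cpne6* passed (0.0102) and the adjusted p of the other 5 lay between 0.0532 and 0.104.

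The number of calls lay between those of the neighbouring steps, which span fewer days in culture. The step from 3 to 6 DIV had 12 genes higher (0.0589%) and 10 lower (0.0491%) in the same limma fit, with 1030 (5.06%) and 1095 (5.38%) at an unadjusted p under 0.05. The step from 12 to 15 DIV had 0 in either direction (0%), with 478 (2.35%) and 435 (2.14%) unadjusted. *Cpne6*, *Rasgrp1* and *Scn2b* had differences of 0.16, 0.47 and -0.13 between 6 DIV and 3 DIV, none of which passed. *Cntnap1*, *Cpne7* and *Dcn* had already risen between 3 and 6 DIV, by 1.63, 2.24 and 1.56 (limma adjusted p = 0.0488, 0.0104 and 0.0186). From 12 to 15 DIV the differences of the 6 genes lay between -0.09 (*Dcn*) and 0.91 (*Cpne6*), and none passed. A direct test of each gene's 12 DIV minus 6 DIV step against its step from 3 to 6 DIV called 0 genes of 20358 at the adjusted threshold (375 higher, 1.84%, and 274 lower, 1.35%, at an unadjusted p under 0.05). The test against the step from 12 to 15 DIV also called 0 (694 higher, 3.41%, and 586 lower, 2.88%, unadjusted). The steps share arrays with one another. No gene was thus shown to change more in this interval than in its neighbours, and the adjusted p of the 6 genes in these tests was 1 and 0.765.

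**Figure D3:**
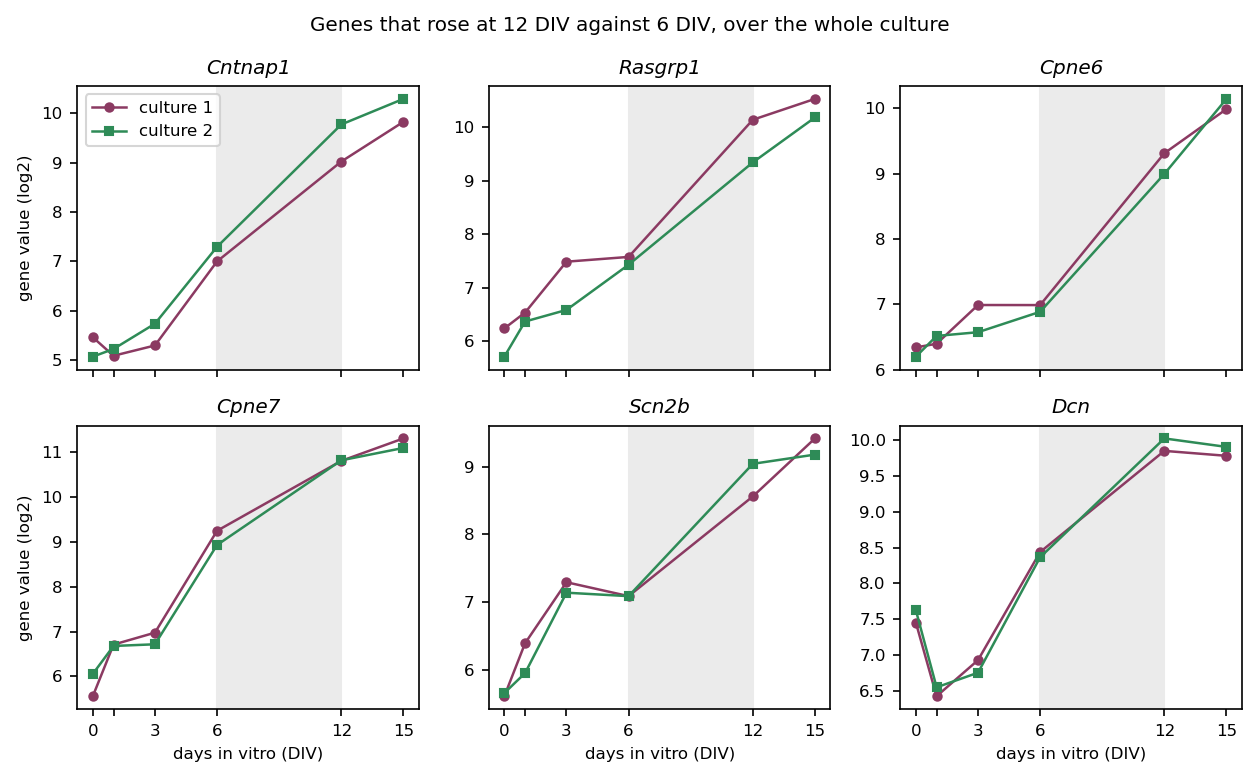
Values (log2) of the 6 genes that rose at 12 DIV against 6 DIV, plotted over 0, 1, 3, 6, 12 and 15 DIV for culture 1 (circles) and culture 2 (squares), with the interval from 6 to 12 DIV shaded. From 3 to 6 DIV, before the shaded interval, *Cpne6*, *Rasgrp1* and *Scn2b* had differences of 0.16, 0.47 and -0.13, none of which passed the test. *Dcn* was level after the interval (-0.09).

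Promoter sequences, from RefSeq on GRCm38.p6, were at hand for 2 of the 6 genes. They run from 250 bases before the start of the gene to 50 bases after it and are shown 5′ to 3′ on the gene's strand, since both genes were called and their promoters differ in base composition. Capitals mark the GC box GGGCGG on either strand, the binding letters of Sp1-type factors, which 35.7% of 32851 promoters of this length held.
*Rasgrp1* at chr2:117342828-117343127, minus strand: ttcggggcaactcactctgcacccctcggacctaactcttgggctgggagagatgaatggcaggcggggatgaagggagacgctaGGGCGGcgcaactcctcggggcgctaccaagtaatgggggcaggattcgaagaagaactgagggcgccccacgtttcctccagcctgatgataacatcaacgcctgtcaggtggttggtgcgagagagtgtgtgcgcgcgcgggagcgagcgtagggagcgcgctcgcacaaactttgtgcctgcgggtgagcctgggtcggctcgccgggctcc
*Scn2b* at chr9:45117626-45117925, plus strand: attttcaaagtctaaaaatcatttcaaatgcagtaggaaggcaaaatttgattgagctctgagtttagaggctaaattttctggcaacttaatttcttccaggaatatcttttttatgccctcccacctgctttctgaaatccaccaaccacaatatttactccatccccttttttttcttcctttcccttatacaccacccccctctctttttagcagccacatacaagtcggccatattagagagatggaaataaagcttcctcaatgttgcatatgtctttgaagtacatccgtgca
The *Rasgrp1* window had 63.7% G and C with 1 GC box, and the *Scn2b* window had 38.3% with none, against a median of 52.7% over all promoters. Searched on both strands, neither window held the E-box CACGTG (in 7.15% of all promoters), the cyclic AMP element TGACGTCA (in 1.79%), the TATA box TATAAA (in 13.6%) or the AP-1 element TGANTCA (in 7.81%).

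On the presynaptic side, 19 of 23 vesicle proteins and transmitter transporters were higher in both cultures and 2 lower. Of the 23, 6 were at least 0.5 higher in both cultures, 1 was at least 0.5 lower, and 0 passed the test. The median difference was 0.28 (0.27 in culture 1, 0.42 in culture 2), against 0.02 over all genes. *Slc6a7*, the brain proline transporter found on glutamatergic terminals, had 9.94 and 9.92 at 12 DIV, against 8.04 and 7.62 at 6 DIV. This difference of 2.10 (95% interval 1.46 to 2.74) came closest to the threshold of all genes that missed it (limma adjusted p = 0.0557). *Slc17a7* encodes VGLUT1, the transporter that fills vesicles of mature hippocampal excitatory neurons with glutamate. It had 11.35 and 11.76 at 12 DIV, against 10.13 and 10.54 at 6 DIV, a difference of 1.22 in each culture (95% interval 0.80 to 1.65, limma adjusted p = 0.0695). *Slc17a6*, the VGLUT2 transporter of younger neurons, had 8.55 and 8.35 at 12 DIV and 8.54 and 8.96 at 6 DIV, so its groups overlapped.

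The vesicular GABA transporter *Slc32a1* was at 10.28 and 10.16 at 12 DIV, against 9.62 and 9.57 at 6 DIV. The GABAergic markers *Gad1* and *Gad2* each had opposite signs in the cultures. *Gad1* had 10.49 and 10.77 at 12 DIV and 10.55 and 10.33 at 6 DIV. *Gad2* had 9.75 and 10.76 at 12 DIV and 9.92 and 10.25 at 6 DIV. *Synpr* (synaptoporin) differed by 1.06 and 0.91 in cultures 1 and 2, *Syn2* (synapsin II, which tethers vesicles) by 0.94 and 0.74, and *Dnm1* (dynamin 1, which severs endocytic vesicles) by 0.51 and 0.72. *Syn3*, a synapsin of developing neurons, lay on the other side, with 8.36 and 7.54 at 12 DIV, against 9.07 and 8.28 at 6 DIV. Of 24 genes of the release machinery, 2 were at least 0.5 higher in both cultures, and the median was 0.01 in culture 1 and 0.41 in culture 2. Those were *Vamp1*, a vesicle SNARE, with differences of 0.97 and 0.86, and *Snap25*, the SNARE of the presynaptic membrane, with 11.84 and 11.48 at 12 DIV, against 11.02 and 10.76 at 6 DIV (difference 0.77, limma adjusted p = 0.147). *Syt1*, the calcium sensor of release, had 12.23 and 12.15 at 12 DIV and 12.12 and 11.85 at 6 DIV, a difference of 0.20 (95% interval -0.20 to 0.61). 

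Among 27 postsynaptic density and spine genes, 18 were higher in both cultures and 2 lower. Of these, 6 were at least 0.5 higher in both cultures and 0 lower (median 0.30 in culture 1 and 0.41 in culture 2), and 0 passed the test. *Itpka*, a kinase of inositol trisphosphate that bundles actin in spines, had 9.72 and 8.71 at 12 DIV, against 7.74 and 7.50 at 6 DIV. *Nrgn* encodes neurogranin, which holds calmodulin at rest, and its differences were 1.07 and 1.44. Those of *Ddn* (dendrin) were 1.21 and 1.07, and those of *Synpo* (synaptopodin, of the spine apparatus) 1.23 and 0.75. *Camk2a*, the alpha isoform of CaM kinase II, was at 11.76 and 11.75 at 12 DIV, against 10.48 and 10.84 at 6 DIV, a difference of 1.10 (95% interval 0.62 to 1.57, limma adjusted p = 0.117). The scaffold *Shank3* had 9.76 and 9.79 at 12 DIV, against 9.08 and 9.07 at 6 DIV. *Dlg4*, which encodes PSD-95, differed by 0.26 only (95% interval -0.15 to 0.67).

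Of 27 ionotropic glutamate receptor genes and auxiliary proteins, 2 were at least 0.5 higher in both cultures, and both were auxiliary subunits of AMPA receptors. *Cacng8*, the hippocampal TARP gamma-8, had differences of 0.59 and 0.65, and *Shisa6* of 0.62 and 0.99. Among the pore subunits, *Grik4*, of kainate receptors, came close to that size in both cultures, with differences of 0.46 and 0.75 (fitted 0.61, 95% interval 0.04 to 1.18). Fitted differences were 0.04 for *Gria1* (95% interval -0.36 to 0.44), 0.24 for *Grin1* (-0.28 to 0.76), 0.27 for *Grin2a* (-0.14 to 0.69) and -0.11 for *Grin2b* (-0.50 to 0.28). Of the 27 members, 13 were higher in both cultures and 4 lower, among them the auxiliary genes *Cacng4* (-0.35 and -0.35) and *Neto2* (-0.72 and -0.22). Among 19 genes of inhibitory synapses, *Slc12a5* was the only member at least 0.5 higher in both cultures. It encodes KCC2, the chloride exporter that makes GABA inhibitory in mature neurons, and had 10.85 and 11.18 at 12 DIV, against 10.28 and 10.63 at 6 DIV (limma adjusted p = 0.475). *Slc12a2*, the chloride importer NKCC1 of young neurons, differed by -0.40 and -0.41. Adhesion and secreted synaptic organisers had 1 of 35 members at least 0.5 higher in both cultures, against 3.33% of all genes. That member was *C1ql2*, a complement-like protein secreted by mossy fibres, with differences of 1.62 and 0.88.

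Calcium sensors, calcium buffers and neuronal signalling kinases had 12 of 36 members at least 0.5 higher in both cultures and 0 lower, with medians of 0.35 in culture 1 and 0.46 in culture 2. *Rasgrp1*, described above, was the member that passed. *Rasgrf1*, another Ras exchange factor, which responds to calmodulin, had 10.25 and 9.55 at 12 DIV, against 7.92 and 7.03 at 6 DIV. Its difference of 2.43 was larger than that of *Rasgrp1*, and its standard error was larger too (0.37, limma adjusted p = 0.0695). *Rasal1*, a calcium-dependent protein that switches Ras off, also lay higher, by 1.34 and 1.01. *Hpca* (hippocalcin, the calcium sensor of hippocampal pyramidal cells) differed by 1.54 and 1.52, *Hpcal4* by 0.80 and 0.93 and *Vsnl1* by 0.98 and 0.64. The calcium buffers *Calb1* (1.18 and 0.61) and *Calb2* (1.34 and 0.67) differed more in culture 1. *Prkcb* (a protein kinase C) differed by 0.43 and 1.11, more in culture 2.

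Potassium channels had a median difference of 0.43 in culture 1 and 0.47 in culture 2, against 0.03 and -0.02 over all genes. Of 38 channel subunits, 12 were at least 0.5 higher in both cultures, 0 were lower and 0 passed the test. *Kcnh3*, an ether-a-go-go type subunit of the forebrain, had 9.10 and 9.43 at 12 DIV, against 7.85 and 7.89 at 6 DIV, a difference of 1.40 (95% interval 0.91 to 1.88, limma adjusted p = 0.0695). *Kcnc4*, a fast channel of the Kv3 family, had 10.80 and 10.60 at 12 DIV, against 9.63 and 9.48 at 6 DIV. In both genes the 12 DIV arrays lay above both 6 DIV arrays, as they did in 14.5% of all genes. The beta subunit *Kcnab2* differed by 0.91 and 1.10. All 3 small-conductance calcium-activated channels were among the 12, *Kcnn1* with 1.23 and 0.58, *Kcnn2* with 0.91 and 0.64 and *Kcnn3* with 0.80 and 1.06. So were the G-protein-gated inward rectifiers *Kcnj6* (0.56 and 0.73) and *Kcnj9* (0.53 and 0.74).

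Of 24 sodium, calcium and HCN channel genes, 3 were at least 0.5 higher in both cultures. Besides *Scn2b* these were *Scn8a*, the Nav1.6 channel of the mature axon initial segment (9.32 and 9.23 at 12 DIV, against 8.54 and 8.59 at 6 DIV), and *Cacna1i*, a T-type calcium channel (differences 0.84 and 0.66). Of 19 genes of the axon initial segment, node and perineuronal matrix, 5 were at least 0.5 higher in both cultures and 1 lower. *Cntnap1* led them, and the neurofilaments *Nefh* (1.34 and 0.61) and *Nefl* (1.16 and 0.60) and the matrix link proteins *Hapln1* (0.68 and 1.03) and *Hapln4* (1.19 and 0.70) followed. The member that lay lower was *Has3*, a hyaluronan synthase, with -0.76 and -0.66. *Ncam2*, an adhesion gene, differed by 0.00 and 0.29. *Ank3*, which encodes the initial-segment organiser ankyrin-G, differed by -0.16 (95% interval -0.57 to 0.26).

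**Figure D4:**
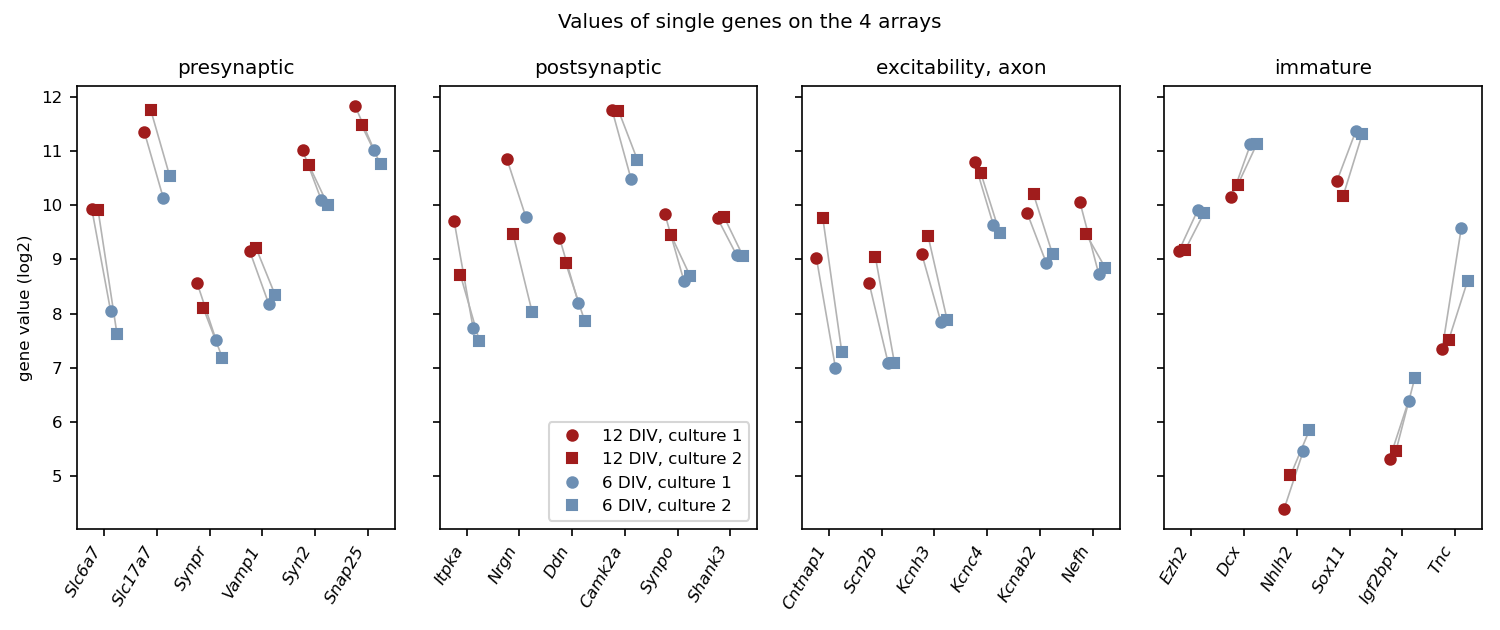
Values (log2) of single genes on the 4 arrays, with 12 DIV (red) left of 6 DIV (blue), culture 1 as circles and culture 2 as squares, and a line joining the arrays of a culture. The genes were picked after their values had been seen, so their directions follow from the choice. Those of the presynaptic, postsynaptic, excitability and axon panels lie higher at 12 DIV and those of the immature panel lower in both cultures. Members that changed little, such as *Syt1*, *Dlg4*, *Ank3* and *Gap43*, are not shown. The immature panel includes *Tnc* of the progenitor list and *Ezh2* of the chromatin list. Among the genes shown, *Cntnap1* and *Scn2b* passed the limma test.

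Among 33 genes of immature neurons and neurite outgrowth, 22 were lower in both cultures and 2 higher. Of these, 5 were at least 0.5 lower in both cultures, 0 were higher by that size and 0 passed the test, with medians of -0.41 in culture 1 and -0.11 in culture 2. *Sox11*, a transcription factor of newborn neurons, had 10.45 and 10.18 at 12 DIV, against 11.38 and 11.31 at 6 DIV, a difference of -1.03 (95% interval -1.45 to -0.62, limma adjusted p = 0.102). *Igf2bp1*, an embryonic RNA-binding protein that carries beta-actin mRNA into growth cones, had 5.31 and 5.46 at 12 DIV, against 6.38 and 6.82 at 6 DIV. *Dcx* encodes doublecortin, the microtubule-associated protein of migrating neurons, and had 10.15 and 10.38 at 12 DIV, against 11.13 and 11.13 at 6 DIV. *Nhlh2* (-1.06 and -0.84) and the axonal adhesion gene *Cntn2* (-0.84 and -0.55) were the others. The groups did not overlap in *Sox11*, *Igf2bp1*, *Dcx* and *Nhlh2*, and non-overlap downward was found in 15.3% of all genes. *Nhlh2* was low at both times, with 4.39 and 5.01 at 12 DIV, against 5.45 and 5.85 at 6 DIV. These values, and those of *Igf2bp1* at 12 DIV, lay below the lower quartile of each of the 4 arrays (6.02 at the lowest). The 4.39 was also below the 5% quantile of its array (4.93). Among the genes of lowest signal the differences of both cultures correlated at only 0.05. *Gap43*, of growth cones, differed by -0.11 (95% interval -0.54 to 0.33), so not every gene of outgrowing neurites was at least 0.5 lower.

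Outside this list, *St8sia2*, which adds the polysialic acid that keeps young neurons mobile, had 8.93 and 8.41 at 12 DIV, against 10.24 and 9.76 at 6 DIV. *Gpc2*, a glypican of growing axons, had 8.37 and 8.48 at 12 DIV, against 9.50 and 9.72 at 6 DIV. When all probesets were used, *Gpc2* was among the 3 genes that limma called lower (difference -1.21, adjusted p = 0.0339), with *Mex3a*, an RNA-binding protein (-1.16, 0.0316), and *Ttc28* (-0.95, 0.0364). *Mex3a* rested on 1 probeset. Of 20 progenitor genes, *Tnc*, the matrix protein tenascin-C of radial glia (-2.22 and -1.10), and *Vim*, which encodes vimentin (-0.95 and -0.59), were at least 0.5 lower in both cultures, and 0 were higher. Chromatin and DNA replication factors had a median of -0.27, with 16 of 25 lower in both cultures. *Ezh2*, the histone methyltransferase of Polycomb, had 9.16 and 9.18 at 12 DIV, against 9.91 and 9.86 at 6 DIV. The deacetylase *Hdac11* was the member at least 0.5 higher in both cultures (9.51 and 9.37 at 12 DIV, against 8.45 and 8.47 at 6 DIV). *Top2b*, a DNA topoisomerase, differed by -0.53 and -0.32, and the histone chaperone *Nasp* by -0.36 and -0.29. Proliferation genes had 2 of 35 at least 0.5 higher in both cultures and 0 lower, against 3.33% and 1.12% of all genes. The 2 were the G1 cyclins *Ccnd1* (1.15 and 1.47) and *Ccnd2* (0.52 and 0.68). The S phase and mitosis marker *Mki67* differed by 0.05 and 0.37. Factors of hippocampal and cortical identity had 0 of 23 members past 0.5 in both cultures, a size that few of all genes reached. Irrespective of size, 13 were lower in both and 0 higher.

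Genes of the microtubule cytoskeleton were the subject of the study. Of 55 tubulins, microtubule-associated and severing proteins, 5 were at least 0.5 higher in both cultures and 0 lower, with medians of -0.14 in culture 1 and 0.03 in culture 2. Those 5 included 2 alpha-tubulin isotypes, *Tuba8* with 9.43 and 9.11 at 12 DIV, against 7.59 and 7.70 at 6 DIV, and *Tuba4a* with 11.25 and 11.33 at 12 DIV, against 9.93 and 9.98 at 6 DIV. Their differences were 1.63 and 1.34 (limma adjusted p = 0.102 and 0.106), while that of *Tuba1a*, the alpha-tubulin of young neurons, was -0.05 (95% interval -0.52 to 0.41). The others were *Agbl4*, an enzyme that shortens the glutamate chains of tubulin (0.82 and 1.53), *Map7*, which recruits kinesin-1 (0.77 and 0.92), and *Tppp* (0.68 and 0.90). *Mapt*, which encodes Tau, differed by -0.49 and -0.38. 

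Among 27 kinesins, *Kif1c* (0.75 and 0.69) and *Kifc2* (0.55 and 1.12) were at least 0.5 higher in both cultures and *Kif26b*, a kinesin of developing tissue, lower (-0.69 and -0.98). *Kif11*, which encodes the motor Eg5, had 8.39 and 8.31 at 12 DIV and 8.66 and 7.84 at 6 DIV, so the groups overlapped. The kinase gene *Nek7* had 9.44 and 9.58 at 12 DIV, against 9.02 and 8.69 at 6 DIV. Its difference of 0.66 (95% interval 0.16 to 1.15) did not pass (limma adjusted p = 0.375), although all of its 12 probesets were higher in the mean. Of the dynein group, *Hap1*, an adaptor of vesicle transport, had 9.56 and 9.56 at 12 DIV, against 8.52 and 8.41 at 6 DIV, and it was 1 of 23. Centrosome and nucleation genes had 0 of 32 past 0.5 in both cultures, where all genes had 3.33% higher and 1.12% lower. Irrespective of size, 11 were lower in both and 3 higher.

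**Figure D5:**
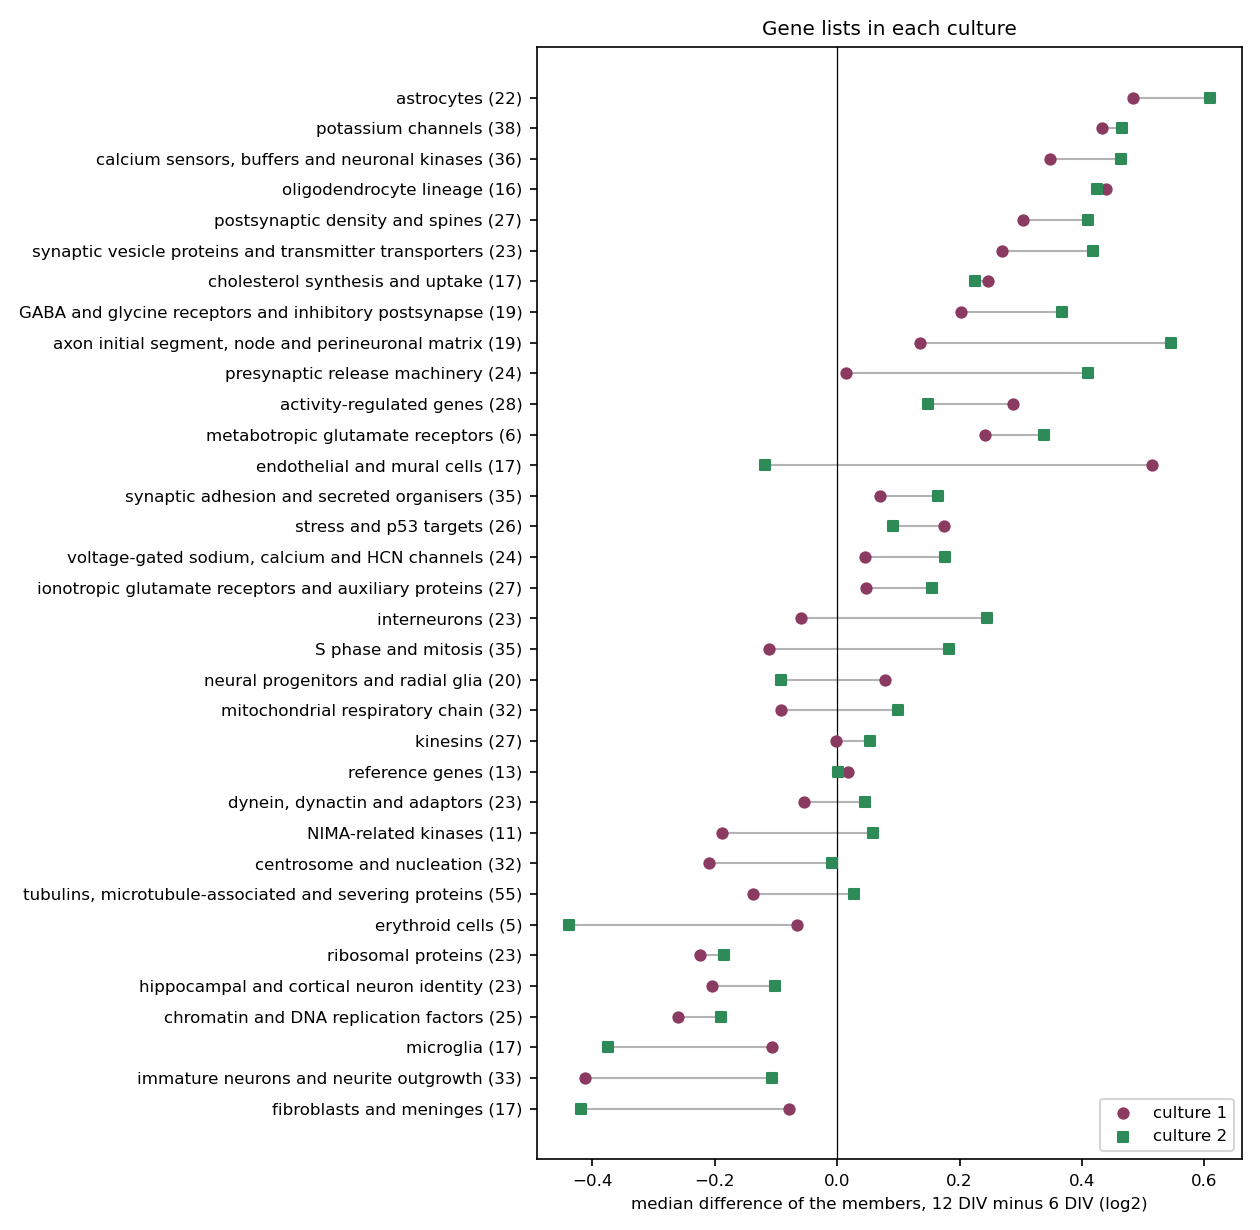
Median 12 DIV minus 6 DIV difference (log2) over the measured members of each gene list, in culture 1 (circles) and culture 2 (squares), with the number of members in parentheses. Astrocyte genes (0.48 and 0.61), potassium channels, calcium sensors, oligodendrocyte lineage genes and postsynaptic genes lie to the right in both cultures. Immature neuron genes lie to the left in both (-0.41 and -0.11), and endothelial genes on opposite sides (0.51 and -0.12).

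In a mixed culture, fewer cells of a type and less RNA per cell cannot be told apart. Of the listed genes of non-neuronal cells, only *Dcn* passed the test. Of 22 astrocyte genes, 7 were at least 0.5 higher in both cultures and 0 lower, with medians of 0.48 and 0.61, and 0 passed the test. The fitted median of this list (0.515) was the largest of the 35 lists, above that of potassium channels (0.465). *Aqp4*, the water channel of astrocyte endfeet, had 10.15 and 8.84 at 12 DIV, against 9.11 and 7.54 at 6 DIV, and *Slc1a2*, the glutamate transporter GLT-1, had 10.96 and 10.74 at 12 DIV, against 10.33 and 10.21 at 6 DIV. *Gfap*, an intermediate filament of astrocytes, had opposite signs (-0.93 in culture 1 and 1.06 in culture 2). The mean level of the astrocyte list was 9.95 and 9.20 at 12 DIV and 9.50 and 8.61 at 6 DIV, so it was higher in culture 1 at both times. Oligodendrocyte lineage genes had 4 of 16 at least 0.5 higher in both cultures, with list means of 7.95 and 7.64 at 12 DIV and 7.61 and 7.15 at 6 DIV. They were *Pdgfra* (0.79 and 2.04) and *Lhfpl3* (0.80 and 1.09) of precursor cells, *Sox10* (0.82 and 0.81) and the myelin gene *Mbp* (1.13 and 0.96). *Mog*, a late myelin gene, was at 5.56 and 6.16 at 12 DIV, against 6.69 and 6.60 at 6 DIV.

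Microglial genes had 5 of 17 at least 0.5 lower in both cultures and 1 higher, and list means of 6.34 and 6.38 at 12 DIV against 6.61 and 6.98 at 6 DIV. *Tyrobp*, a signalling adaptor of microglia, had 6.41 and 5.83 at 12 DIV, against 7.45 and 6.91 at 6 DIV, and the protease *Ctss* had 6.47 and 6.38 at 12 DIV, against 7.50 and 8.61 at 6 DIV. Irrespective of size, 10 of the 17 were lower in both cultures and 2 higher, and 0 passed the test. Of the defining receptors, *Cx3cr1* had 7.22 and 7.28 at 12 DIV, against 7.33 and 7.81 at 6 DIV, while the differences of *Csf1r* were 0.67 and 0.03 and those of *P2ry12* 0.57 and -0.08, and the lysosomal gene *Cd68* was the member at least 0.5 higher in both. Fibroblast and meningeal genes are the list that holds *Dcn*. Of its 17 members only *Dcn* was at least 0.5 higher in both cultures, while 8 were lower in both, among them *Col1a2* with 6.95 and 6.71 at 12 DIV, against 7.03 and 7.44 at 6 DIV. The list mean was 6.78 and 6.80 at 12 DIV and 6.84 and 7.17 at 6 DIV, so it was not higher at 12 DIV as *Dcn* was. The endothelial list had medians of opposite sign in the cultures (0.51 and -0.12), with *Cdh5* at 5.69 and 5.56 at 12 DIV and 5.60 and 5.36 at 6 DIV. The part of these other cell types in the synaptic and channel values was not tested.

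Receptors for acetylcholine and cholecystokinin and a group of clock and hormone-responsive transcription factors were set together after their values had been seen. *Chrm1*, the main muscarinic receptor of pyramidal cells, had 9.58 and 9.78 at 12 DIV, against 8.53 and 8.46 at 6 DIV, and *Cckbr* had 8.41 and 8.48 at 12 DIV, against 7.25 and 6.98 at 6 DIV. *Lgi3*, a secreted partner of ADAM proteins, had 8.12 and 7.89 at 12 DIV, against 6.80 and 6.41 at 6 DIV. Of 7 muscarinic and cholecystokinin receptors, 3 were at least 0.5 higher in both cultures and 0 lower. The third was *Chrm5* (1.97 and 1.26), and *Chrm2* had opposite signs (-0.26 and 0.33). Of 4 genes of the LGI family, *Lgi3* was the only one of that size in both cultures, and *Lgi2* had opposite signs (-0.79 and 1.09). In *Chrm1*, *Cckbr* and *Lgi3* both 12 DIV arrays lay at least 1 above both 6 DIV arrays. Non-overlap upward by any margin was found in 14.5% of all genes, and the share with a gap of at least 1 was not counted. Of 20 clock and hormone-responsive factors, 7 were at least 0.5 higher in both cultures and 0 lower. *Nr1d1* and *Nr1d2* encode REV-ERB alpha and beta, nuclear receptors that repress the clock gene *Arntl*. *Nr1d1* had 10.13 and 9.86 at 12 DIV, against 8.38 and 8.65 at 6 DIV, and *Nr1d2* had 8.22 and 8.13 at 12 DIV, against 6.69 and 6.79 at 6 DIV. Their differences were 1.48 and 1.44 (limma adjusted p = 0.0695 for each). *Klf9*, a glucocorticoid- and thyroid-responsive factor, differed by 1.18 and 1.25. The clock genes *Arntl* (0.00 and 0.16), *Dbp* (0.05 and -0.09) and *Per2* (-0.35 and -0.20) did not reach 0.5 in either culture.

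The RefSeq promoters of both REV-ERB genes on GRCm38.p6 are shown since both genes were over 1 higher in both cultures, again 5′ to 3′ on the gene's strand, with the GC box GGGCGG and the nuclear receptor half-site AGGTCA in capitals on either strand.
*Nr1d1* at chr11:98775328-98775627, minus strand: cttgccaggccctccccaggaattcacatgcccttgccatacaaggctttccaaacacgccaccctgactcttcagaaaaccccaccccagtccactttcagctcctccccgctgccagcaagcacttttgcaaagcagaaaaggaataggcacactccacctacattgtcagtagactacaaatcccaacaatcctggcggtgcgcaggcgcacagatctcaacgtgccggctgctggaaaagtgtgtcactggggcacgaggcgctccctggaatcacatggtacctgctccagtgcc
*Nr1d2* at chr14:18239057-18239356, minus strand: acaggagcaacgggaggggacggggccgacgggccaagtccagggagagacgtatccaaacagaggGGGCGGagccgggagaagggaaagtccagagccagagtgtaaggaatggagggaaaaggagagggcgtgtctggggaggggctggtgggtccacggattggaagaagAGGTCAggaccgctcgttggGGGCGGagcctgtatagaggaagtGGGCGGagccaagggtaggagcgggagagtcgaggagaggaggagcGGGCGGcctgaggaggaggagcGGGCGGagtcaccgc
The *Nr1d2* window held 5 GC boxes and 1 AGGTCA, a half-site that 16.3% of all promoters held, and the *Nr1d1* window held neither. Their G and C content was 65.7% for *Nr1d2* and 56.3% for *Nr1d1*.

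Of 28 activity-regulated genes, 5 were at least 0.5 higher in both cultures and 2 lower. *Ptgs2*, the inducible cyclooxygenase, had 7.46 and 9.01 at 12 DIV, against 5.03 and 7.85 at 6 DIV, so its groups overlapped. *Egr2* (0.79 and 0.73), *Junb* (1.14 and 0.55), *Penk* (0.54 and 0.86) and *Npy* (0.51 and 0.83) were the other members higher, and *Fosb* (-0.87 and -0.74) and *Nr4a2* (-0.86 and -0.64) were lower. *Fos* had 8.02 and 10.15 at 12 DIV and 7.54 and 9.98 at 6 DIV, a gap between cultures at both times that was wider than the gap between times. *Bdnf* had the same pattern, with 7.46 and 8.72 at 12 DIV and 7.38 and 8.74 at 6 DIV.

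The reference genes had a median of 0.02 in culture 1 and 0.00 in culture 2, and *Actb* differed by -0.19 (95% interval -0.64 to 0.26). Respiratory chain genes had medians of -0.09 in culture 1 and 0.10 in culture 2, and ribosomal protein genes of -0.22 and -0.18. Other genes differed in opposite directions between the cultures, among them the red-cell gene *Hbb-b1* (1.90 and -1.97) and the receptor gene *Grm2*, with 5.38 and 8.34 at 12 DIV and 7.48 and 7.66 at 6 DIV. For such genes the fitted difference, which was -0.04 for *Hbb-b1* and -0.71 for *Grm2*, describes neither culture.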

How the data were processed

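Total RNA (25 ng per array) was amplified before labelling, and the authors normalized the 12 arrays with RMA, version and genome build not given in the sources used here. The deposited values are log2 values for 241576 probesets. Of these, 212138 had 1 gene symbol and were used, 4672 had several, 24766 had none, and 2743 symbols were updated through RefSeq. Following the study's methods, probesets were ranked within a gene by interquartile range, and the upper 50% went into a median polish, giving 20358 genes, of which 2257 rested on 1 probeset. Time and replicate were fitted for each gene by limma 3.58.1 (R 4.3.3, with the package data.table, version 1.17.8), with 5 residual and 5.64 prior degrees of freedom, at an adjusted p threshold of 0.05. Figures were drawn in Python 3.11.15 with matplotlib 3.10.9. The methods describe 2 independent replicas with batch in the model. Deviations of same-numbered arrays from their time means correlated across genes in all 15 pairs of times (median 0.297, 0.111 to 0.463), so the numbers were taken as pairs. Whether same-numbered arrays shared a preparation of cells or only the array processing was not tested. Arrays have no read depth, and their number limits the precision.

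The comparison, the 35 gene lists (825 of 877 entries measured) and the tests were chosen with earlier results of these data known. A further 4 lists (the copines, the muscarinic and cholecystokinin receptors, the LGI family and the clock factors), as well as the size rule over both cultures and the array quality weights, were chosen after the values had been seen. Genes named are those past the threshold, members of lists that did not pass, and genes the study names for its arrays. Alternatives were no replicate block, all probesets, the mean of probesets, quantile normalization, centring and a filter on low signal. Others were an intensity trend with robust variances, the 4 arrays alone, array quality weights, steps per day in culture and leaving out each array. Of the 29438 probesets with several symbols or none, 0 passed limma (1678 at an unadjusted p under 0.05).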

Additional observations from a re-analysis of the deposited data

How the results depend on the processing

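Of the 6 genes higher at 12 DIV, all 6 were called again with the mean of the probesets, quantile normalization or centring, which each called 6. The limma count was 19 with all probesets, 40 without the genes of lowest signal (13572 left), 67 with an intensity trend and robust variances, 3 with array quality weights and 0 with the 4 arrays alone (1474 genes at an unadjusted p under 0.05). The array weights came out equal for both arrays of a time, so they cannot single out 1 replicate. Without the replicate block the count was 1. Genes lower numbered 3 with all probesets, 7 with the filter and 14 with the trend, against 0, and 0 with the block left out. Leaving out 1 array gave 0 to 839 genes higher and 0 to 512 lower, and 0 to 1383 genes whose step differed from the step to 15 DIV. The extremes came without the 12 DIV array of culture 2, where the lone array of culture 1 is assumed to vary like the other times. With all probesets, genes at least 1 higher in both cultures numbered 44 (97 otherwise) and lower 6 (16), and at least 0.5 higher 320 (677) and lower 92 (228). The cause was not tested. With steps taken per day in culture, 0 genes had a step from 6 to 12 DIV that differed from either neighbouring step. Among 200 genes checked, leaving out 1 array turned the sign of 6 that had not passed. Their differences then ranged from -0.56 to 0.69 for *Gfap*, -2.12 to 2.05 for *Hbb-b1* and -2.14 to 0.73 for *Grm2*. The range was -0.14 to 0.35 for *Kif11*, -0.11 to 0.40 for *Ncam2* and -0.12 to 1.50 for *Cd68*. This check did not cover every gene named above.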
